A study of Saccharomyces cerevisiae with 22 samples.

Results

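A budding yeast chemostat that received no inhibitor (no3AT) was followed after its sugar was switched to glucose, and its later glucose arrays were set against its early ones. The later arrays were sampled at 385, 478, 507 and 526 h, of which 507 and 526 h are marked as glucose steady state in the labels. The early arrays were sampled at 344 and 353 h. These 6 arrays, chosen by chemostat, sugar and hour, are 6 of the 22 arrays in the study, and 2 galactose arrays of the same culture at 305 and 316 h gave the starting level. The question was which of the early differences from galactose were later lost, kept or reversed.

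The study grew Saccharomyces cerevisiae in 3 chemostats, which hold a culture at a fixed volume with constant inflow of medium. No inhibitor is named for no3AT or for a second culture, no3AT2, whose 6 arrays carried polyA RNA, while 3AT40mM received 40 mM of 3-aminotriazole, which competes with the substrate of the histidine synthesis enzyme His3, and supplied 8 arrays of total RNA. The labels name no strain or allele; knowledge of the study adds that HIS3 was placed under the GAL1 promoter, which glucose represses. Each no3AT array set Cy5-labelled total RNA of the culture against a Cy3-labelled pool of glucose and galactose RNA, so every level below is a log2 ratio of culture to pool after centring the array on its median. The log base and the direction of the ratio are not stated: the values are taken as log2, and the direction as likely, from the low GAL7 and GAL10 values in glucose.

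In yeast, glucose shuts off the genes of galactose use and favours glycolysis and fermentation to ethanol. Ribosomal protein genes are transcribed together and follow the growth rate and nutrient signalling. The activator Gcn4 raises the genes of amino acid synthesis when an amino acid runs short, and is itself controlled mainly at translation.

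All 8 arrays are time points of 1 culture, so the p-values below measure the spread between its arrays and not between cultures. A ratio in a whole culture does not tell fewer cells with a transcript from less transcript per cell. The widest spread of values was on the 353 h array, with an SD of 1.00 log2 units over genes, against 0.61 at 344 h. Values also followed the order of the rows in the table: in the difference between later and early glucose, the correlation between a row and the row 2 places on was 0.60, against 0.07 for adjacent rows. Results are therefore also given from neighbour-corrected values, in which each array's median over 10 rows on either side, at steps of 2, was removed. The part of array layout in any single value was not tested beyond that.

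The galactose genes were set beside the sugar labels. The direction of the ratio was taken from GAL7 and GAL10, so the sign of their change is no check of the labels. GAL7, the galactose uridylyltransferase, stood at -2.81, -2.60, -1.90 and -2.67 on the later glucose arrays and at -2.79 at 344 h, against -0.05 and -0.26 in galactose. GAL10, the epimerase of the same pathway, had -2.21, -3.04 and -3.73 at 385, 478 and 526 h, against -0.62 and -0.21 in galactose. GAL1, the galactokinase, was less uniform, at -1.43, -0.48, -3.68 and -0.53 on the later arrays and -2.67 at 344 h, against -1.17 and -0.46 in galactose. GAL7 was low on every glucose array that measured it, while GAL1 at 478 and 526 h lay within its galactose values. GAL80 showed no such drop, at -0.23, 0.455, -0.15 and -0.33 on the later arrays and -0.30 at 344 h, against -0.35 and -0.25 in galactose. GAL1, GAL7, GAL10 and GAL80 have no value at 353 h and were not tested.

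Between the early and later glucose arrays, many ribosomal protein transcripts and some of amino acid synthesis fell, and few genes rose. Of 5207 genes tested with limma, 126 fell (2.42%) and 8 rose (0.154%) at a Benjamini-Hochberg adjusted p under 0.05, and in all 134 every measured later value lay on one side of both early values. Of the 126, 44 encode cytosolic ribosomal proteins and 11 belong to the 5 lists of amino acid synthesis. Neighbour-corrected values gave 145 lower (2.78%) and 3 higher (0.0576%) genes. The calls shared by both kinds of values number 88, which is 65.7% of the centred calls and 59.5% of the neighbour-corrected ones, and 87 of them fell. Leaving out the 353 h array left 4 calls in place of 134, and leaving out the 344 h array gave 866; without 305, 316, 385 or 526 h there were 62, 54, 74 and 67, and without 507 h 314.

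**Figure D1:**
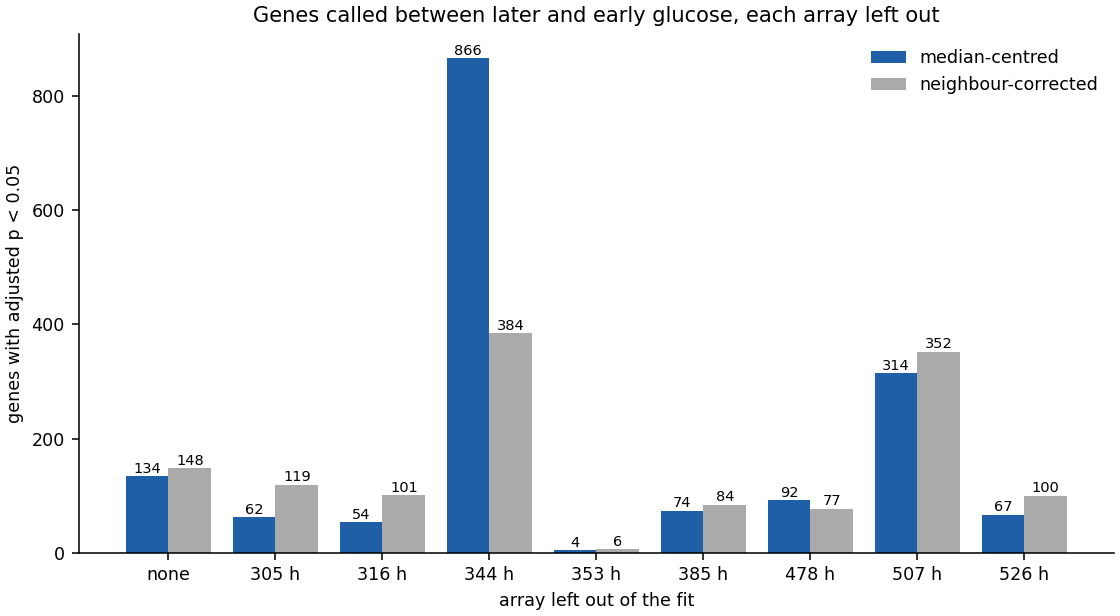
Bars give the number of genes with an adjusted p under 0.05 between later and early glucose (y axis) when the array named on the x axis is left out, from median-centred (blue) and neighbour-corrected (grey) values. The count drops to 4 and 6 without 353 h and is highest, at 866 and 384, without 344 h.

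The cytosolic ribosomal protein genes gave the most called members of any list. Their median over 121 tested genes was 0.86 and 1.37 in galactose at 305 and 316 h, 1.69 and 1.94 in early glucose, and then 0.27, 0.50, 0.53 and 0.72 at 385, 478, 507 and 526 h. All 4 later medians lay below all 4 earlier ones, galactose included. Later minus early glucose, the median difference was -1.28 (neighbour-corrected -1.13), against -0.04 over all genes tested. The later mean was lower in 114 of the 121, against 52.6% of all genes tested, and in 87 all 4 later arrays lay below both early ones, against 15.2% of all genes tested. With neighbour-corrected values these counts were 117 (48.8% over all genes tested) and 93 (13.8%). The test called 44 lower (36.4%) and 0 higher, against 2.42% lower over all genes tested. With neighbour-corrected values 54 were lower (44.6%), against 2.78%, and 38 were called by both. By unadjusted p, 87 of the 121 passed, all of them lower, against 1094 of all tested genes (21%) in either direction.

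RPL4B (YDR012W), a large-subunit protein gene, had -0.09, -0.11, -0.33 and 0.20 on the later arrays, against 2.85 and 3.08 in early glucose and 1.84 and 2.02 in galactose. It fell by 3.05 ± 0.34 log2 units (SE, 4 later and 2 early arrays, adjusted p = 0.000816). The 4 later values sit far below all 4 others and close to each other.

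RPS8B (YER102W), of the small subunit, had 0.31, 1.19, 0.75 and 1.64 on the later arrays, against 3.42 and 4.15 in early glucose and 2.37 and 2.58 in galactose. It fell by 2.81 ± 0.41 (adjusted p = 0.00259). Here the later values spread more, and still none reached the galactose level. RPL32 fell by 2.78 ± 0.40 and RPS11A fell by 2.71 ± 0.39, both with adjusted p = 0.00259.

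Both ribosomal subunits took part. Of 71 large-subunit genes 24 were called lower, with a median difference of -1.29, and of 46 small-subunit genes 16, with a median of -1.17. All 4 stalk protein genes tested were called too, among them RPP0, which fell by 2.02. Most yeast ribosomal proteins have a pair of near-identical gene copies, which a spotted probe may not separate: among 47 pairs tested, both copies were called in 7, one in 19 and neither in 21, and the copies' differences were a median of 0.60 log2 units apart. The 7 members whose later mean was not below the early one reached 1.03 in RPL43B and 0.90 in RPS21A, and none passed the test. With neighbour-corrected values RPL43B was at -0.35 and RPS21A at 0.38.

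The number of calls in this group depended on the 353 h array, and the sign of its median did not. Without it, 2 of 125 ribosomal protein genes were called, with a median difference of -1.0 and a lower later mean in 112. Without 344 h, 70 of 129 were called lower and 1 higher, with a median of -1.59. Without 316 or 385 h, 29 were called.

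Other genes of protein synthesis gave few calls, where 2.42% of all genes tested were called lower. Ribosome biogenesis factors, which assemble the subunits, had 1 call in 85 (NMD3, an export factor of the large subunit, at -2.11 ± 0.43, adjusted p = 0.0201) and a median difference of -0.18. NMD3 did not pass with neighbour-corrected values (adjusted p = 0.0613), which called NOP1 and RLP24 instead. For mitochondrial ribosomal proteins limma called 0 of 59 with either kind of values, 14 of them by unadjusted p, and the median was -0.07. Among elongation factors EFB1 (YAL003W), the exchange factor of elongation factor 1, fell by 2.96 ± 0.51 (adjusted p = 0.00706). Its later values were -1.78, -1.94, 0.18 and -1.72, against 1.62 and 1.68 in early glucose and 0.20 and 0.92 in galactose. The 507 h array stands apart from the other later ones for this gene.

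**Figure D2:**
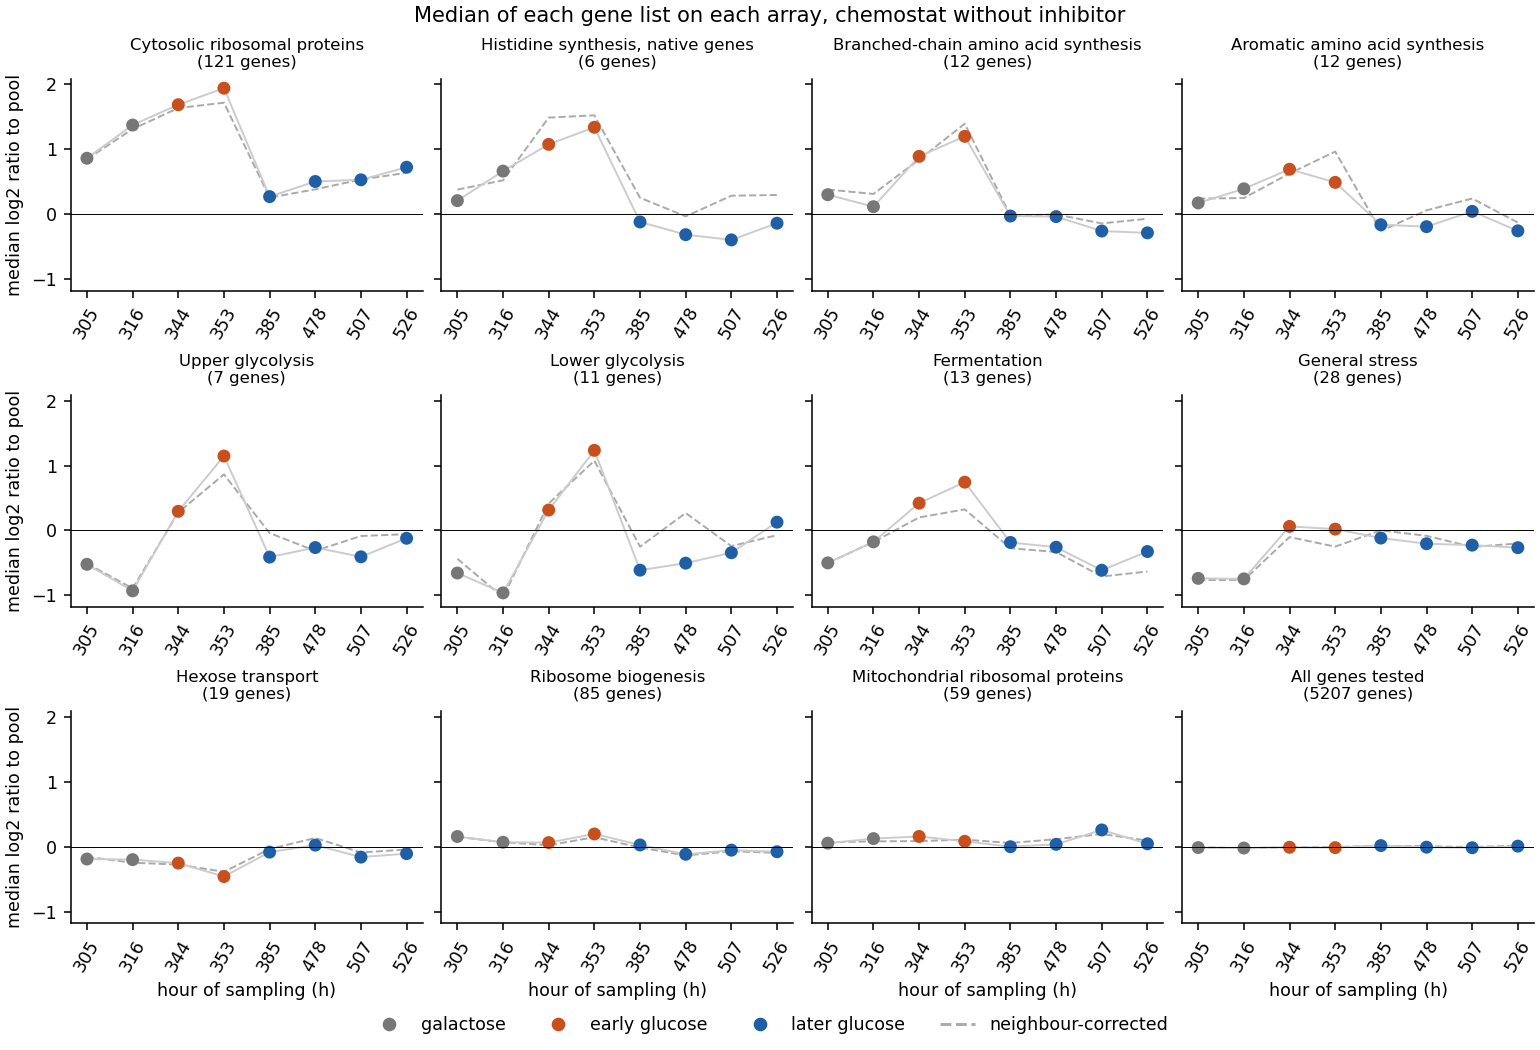
Each panel gives the median log2 ratio to the pool (y axis) of 1 gene list on each array, by hour of sampling (x axis), for galactose (grey), early glucose (orange) and later glucose (blue); dashed lines are neighbour-corrected. Ribosomal protein medians drop from 385 h on to 0.27 to 0.72, below the galactose medians of 0.86 and 1.37, while mitochondrial ribosomal proteins and all tested genes stay near 0.

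Genes of amino acid synthesis fell too. Over the 5 lists, 45 genes were tested, 11 fell (15 with neighbour-corrected values, all 11 among them) and 0 rose. Over all genes tested 2.42% fell (2.78% with neighbour-corrected values). The later mean was lower in 37 of the 45, against 52.6% of all genes tested. The median difference was -1.02 (neighbour-corrected -0.96). Without 353 h 2 of the genes were called, without 344 h 20, and without 305 or 316 h 7.

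Of the 6 native histidine synthesis genes other than HIS3, 3 fell and 3 did not pass, with a median difference of -1.42. Among all genes tested 2.42% fell. HIS1 (YER055C), the first enzyme of the pathway, had 0.24, -0.05, 0.20 and 0.18 on the later arrays, against 1.96 and 2.89 in early glucose and 0.74 and 1.27 in galactose. It fell by 2.28 ± 0.37 (adjusted p = 0.00509), and the later values sit closely together below both galactose values. HIS4, a multifunctional enzyme, fell by 1.57 ± 0.35, and HIS5, the aminotransferase, fell by 1.67 ± 0.37, both with adjusted p = 0.0288. HIS2 at -1.26, HIS7 at -0.68 and HIS6 at -0.16 did not pass.

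HIS3 (YOR202W) itself behaved differently. It had -1.36, -2.82, -3.53 and -1.91 on the later arrays and -1.61 and -1.30 in early glucose, against -0.12 and 1.02 in galactose. Every glucose value lay below both galactose values. The later minus early difference of -0.95 ± 0.52 did not pass (adjusted p = 0.295), and its later glucose minus galactose difference was -2.86 (adjusted p = 0.0189).

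GCN4 (YEL009C), the activator of amino acid synthesis genes, had -0.18, -0.75, 0.25 and 0.48 on the later arrays, against 1.38 and 1.68 in early glucose and 0.06 and 0.49 in galactose. Its transcript fell by 1.58 ± 0.39 (adjusted p = 0.044), to values around those in galactose. With neighbour-corrected values the difference was -1.23 and did not pass (adjusted p = 0.0889).

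In the branched-chain list 4 of 12 fell, against 2.42% of all genes tested, with a median of -1.22. They include ILV6, the regulatory subunit of acetolactate synthase, which fell by 2.54 ± 0.37, LEU4, the isopropylmalate synthase, which fell by 2.22 ± 0.37, and BAT1, the mitochondrial aminotransferase, which fell by 1.99 ± 0.35. ILV6 (YCL009C) had -0.94, -0.91, -0.66 and -0.60 on the later arrays, against 1.34 and 2.20 in early glucose and 0.14 and 0.70 in galactose. All 4 later values were below galactose.

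In the aromatic list 3 of 12 fell, against 2.42% of all genes tested, with a median of -1.16. ARO4 (YBR249C) and ARO3, the paired enzymes that open the pathway, had differences of -2.79 ± 0.36 (adjusted p = 0.0025) and -2.38 ± 0.33 (adjusted p = 0.00259). ARO4 had -0.94, -1.56, -1.19 and -1.60 on the later arrays, against 1.56 and 1.38 in early glucose and 0.38 and 0.92 in galactose. TRP5, the tryptophan synthase, fell by 2.07 ± 0.49 (adjusted p = 0.0419).

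In the arginine list 1 of 8 fell, ARG1, the argininosuccinate synthetase, at -2.21 ± 0.37, with a median of -0.55. Neighbour-corrected values called 3 of the 8 lower (37.5%), with a median of -0.81. The shares called lower among all genes tested were 2.42% and, with neighbour-corrected values, 2.78%. Limma called 0 of the 7 lysine genes with either kind of values, 3 of them by unadjusted p, and their median was -0.63 (neighbour-corrected -0.27). LYS20 and LYS21, the homocitrate synthases, stood at -0.83 and -1.14 later minus early and, on average over the later arrays, 0.86 and 0.79 above galactose.

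Single genes of neighbouring pathways fell too, where 2.42% of all genes tested were called lower. SNZ1 (YMR096W), a vitamin B6 synthesis gene induced in stationary phase, had 0.36, -0.06, 0.53 and 0.40 on the later arrays, against 1.64 and 3.55 in early glucose and 0.44 and 0.36 in galactose. It fell by 2.29 ± 0.45 (adjusted p = 0.0156), to the galactose level, while the other 5 genes of the SNZ and SNO list did not pass. MET32, a zinc finger regulator of sulfur genes, had 0.93, 0.78, -0.10 and 0.36 on the later arrays, against 2.76 and 3.77 in early glucose and 0.97 and 1.34 in galactose, and fell by 2.77 ± 0.40 (adjusted p = 0.00259). With SAM2, an S-adenosylmethionine synthetase, at -1.76 ± 0.41, it made the 2 calls among 18 sulfur genes, whose median was -0.63. Of 13 purine genes, IMD2, an IMP dehydrogenase, fell by 2.23 ± 0.37 and ADE3 fell by 1.56 ± 0.36, and ADE3 did not pass with neighbour-corrected values (adjusted p = 0.142). GLY1, the threonine aldolase that makes glycine, fell by 2.62 ± 0.46.

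**Figure D3:**
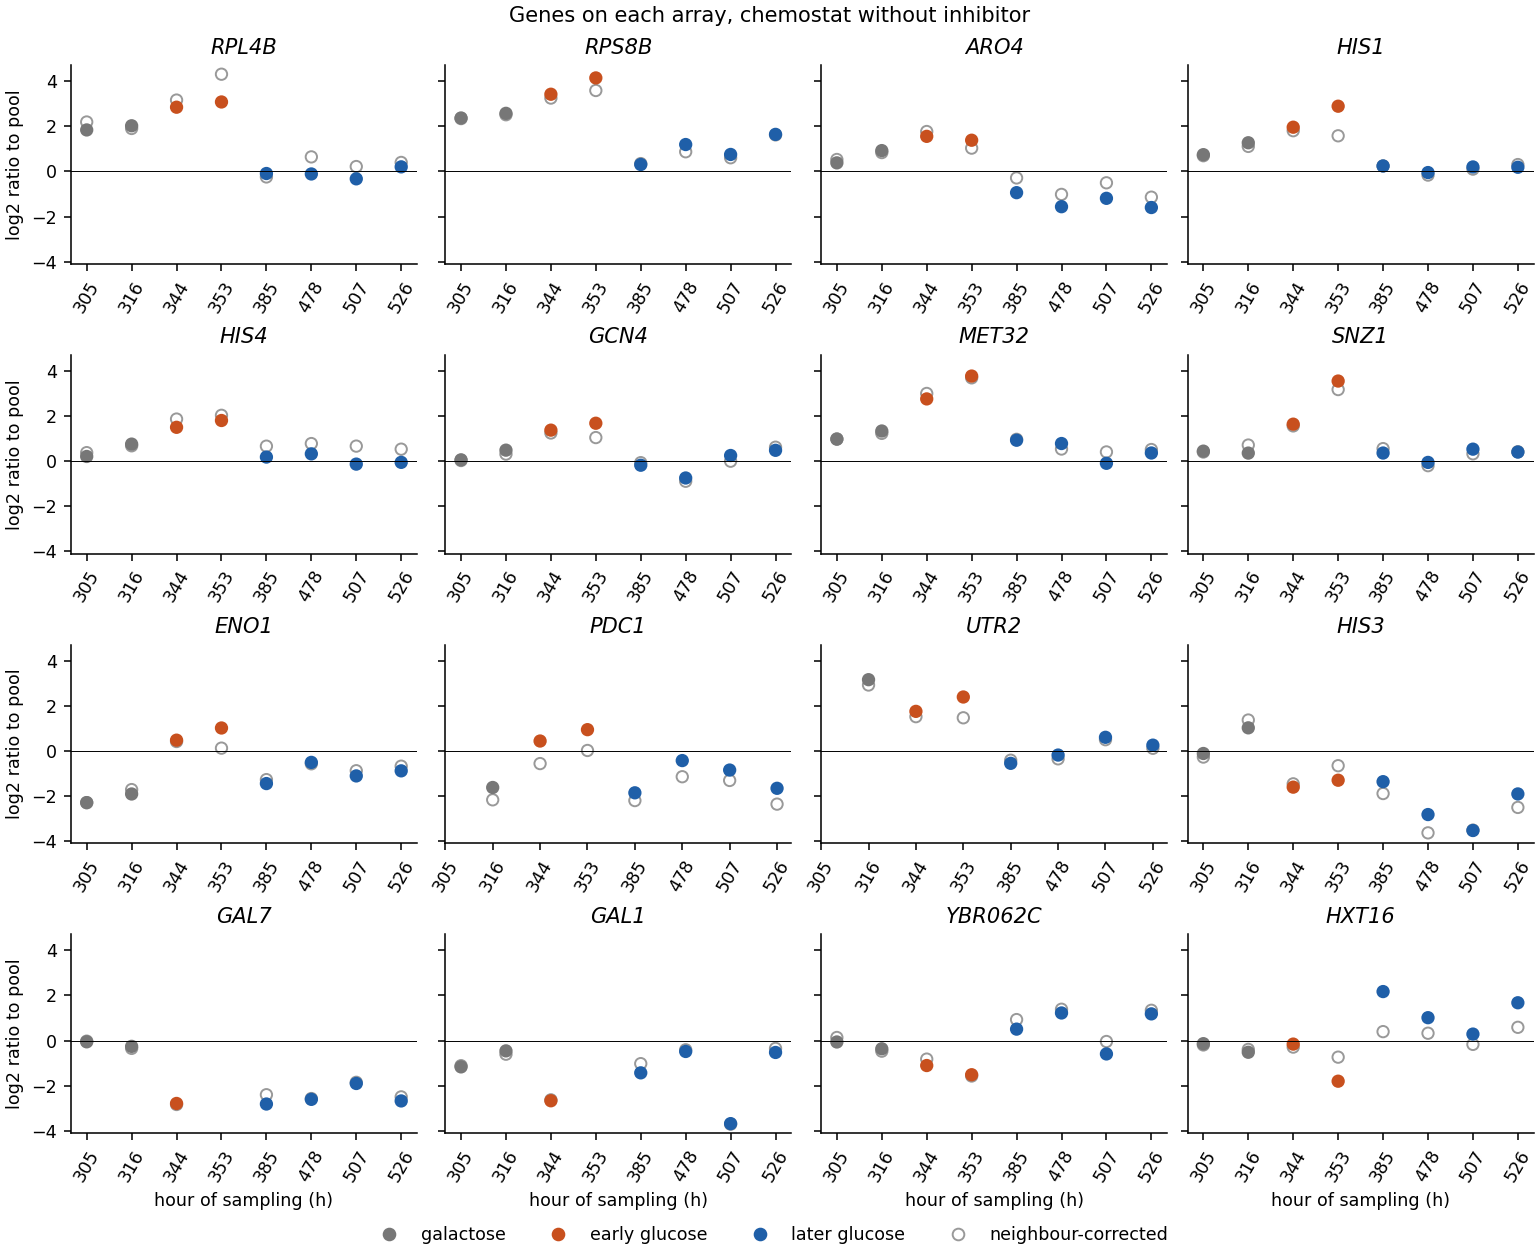
Log2 ratio to the pool (y axis) of 16 genes on each array by hour of sampling (x axis), in galactose (grey), early glucose (orange) and later glucose (blue); open circles are neighbour-corrected. RPL4B, ARO4 and HIS1 drop at 385 h and stay low, HIS3 and GAL7 stay low from the first glucose array that measured them, and the rise of HXT16 shrinks in the open circles.

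Glycolysis and fermentation genes stood high early, and most of that height was gone later. The median of 11 lower glycolysis genes was -0.66 and -0.96 in galactose, 0.31 and 1.23 in early glucose, and -0.61, -0.50, -0.34 and 0.13 on the later arrays in time order. The median difference later minus early was -1.19 there and -1.20 in 7 upper glycolysis genes, with a lower later mean in 10 of 11 and in 7 of 7. Over all genes tested 52.6% had a lower later mean. Few passed the test in limma: 1 of 11 and 0 of 7 (7 and 5 by unadjusted p), and 3 of 13 in fermentation. Over all genes tested 2.42% were called lower, and 21% passed by unadjusted p in either direction. The neighbour-corrected counts were 0, 1 and 2. The sum of 4 calls became 0 without 353 h, 1 without 316, 385 or 526 h, 2 without 305 h and 11 without 344 h.

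ENO1 (YGR254W), an enolase, had -1.45, -0.51, -1.11 and -0.89 on the later arrays, against 0.47 and 1.01 in early glucose and -2.29 and -1.91 in galactose. It fell by 1.73 ± 0.37 (adjusted p = 0.0253) and still lay above galactose on every later array. Its neighbour-corrected difference of -1.12 did not pass (adjusted p = 0.0566). PDC1, the main pyruvate decarboxylase, had -1.86, -0.43, -0.85 and -1.66 on the later arrays, against 0.44 and 0.94 in early glucose and -1.62 in galactose at 316 h, and fell by 1.89 ± 0.44 (adjusted p = 0.0365; neighbour-corrected 0.0622). PDC6, a minor isozyme with closely similar sequence, fell by 1.85 ± 0.44, and ADH2, an alcohol dehydrogenase, fell by 1.89 ± 0.34. ADH2 did not pass with neighbour-corrected values, whose 2 fermentation calls were PDC6 and PDC5.

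Stress, chaperone and proteasome genes contributed single calls, where 2.42% of all genes tested were called lower (2.78% with neighbour-corrected values). In the general stress list, 2 of 28 fell, GPD1, a glycerol phosphate dehydrogenase, at -1.69 ± 0.37 and HOR7 at -1.51 ± 0.34, with a list median of -0.32. HOR7 did not pass with neighbour-corrected values (adjusted p = 0.435), and XBP1, a stress-induced repressor at 1.61, passed only there (adjusted p = 0.00865). Among 19 chaperone genes limma called 0, 5 by unadjusted p, and 2 were lower by neighbour-corrected values, SSC1 and SSA2 (adjusted p of SSA2 = 0.0235). RPT3 was the 1 proteasome gene of 32 that fell (3.12%, near the share of all genes tested), at -1.63 ± 0.39.

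Genes of the cell wall and of chromatin also gave calls, where 2.42% of all genes tested were called lower. UTR2, a chitin transglycosidase, had -0.55, -0.18, 0.60 and 0.25 on the later arrays, against 1.75 and 2.39 in early glucose and 3.16 in galactose at 316 h, and fell by 2.04 ± 0.40 (adjusted p = 0.0182). Its galactose value was the highest of the 7 measured, and the later values were the lowest. SCW4, a soluble wall protein, fell by 1.80 ± 0.45 and HSP150 fell by 1.64 ± 0.39, which made 3 of 29 wall genes. The histone genes HTB2 and HTA2, at -2.04 ± 0.50 and -1.56 ± 0.38, were the 2 of 8 that fell, and HTB2 did not pass with neighbour-corrected values (adjusted p = 0.167).

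Some of the decreases fell outside these lists. POL12, a subunit of DNA polymerase alpha, fell by 3.10 ± 0.67, although its later values were -2.19, -2.56, 0.23 and -2.60. VPS8, of vacuolar sorting, fell by 3.09 ± 0.71 without a value at 478 h, and did not pass with neighbour-corrected values (adjusted p = 0.152). YBL086C fell by 2.83 ± 0.40 and SPC97, a spindle pole body component, fell by 2.61 ± 0.49.

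Increases were few, and 7 of the 8 lost their call with the row-order correction. The 8 genes that rose were GEF1, HXT16, ECM27, THI11, VPS24, YBR062C, BFA1 and YUH1, by 1.64 to 2.33 log2 units. HXT16, a hexose transporter of a set of near-identical copies, had 2.17, 1.02, 0.29 and 1.68 on the later arrays, against -0.15 and -1.80 in early glucose and -0.14 and -0.52 in galactose. Its difference of 2.27 ± 0.52 (adjusted p = 0.0347) became 0.80 with neighbour-corrected values (adjusted p = 0.152). Of the 8, YBR062C alone kept its call. YBR062C, a gene with a RING-type protein product, had 0.51, 1.23, -0.59 and 1.19 on the later arrays, against -1.10 and -1.51 in early glucose and -0.06 and -0.36 in galactose. It rose by 1.89 ± 0.46 (adjusted p = 0.0419; neighbour-corrected difference 2.10, adjusted p = 0.015).

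CBF1, TDA4, YJR154W and RAD7 did not pass and had differences of 1.56 to 1.88. They had the smallest unadjusted p among uncalled genes whose later values all lay above both early ones, and were not ranked by size. Of 19 hexose transporter genes HXT16 was the 1 called, where 0.154% of all genes tested were called higher, and the list median was 0.08. Limma called 0 of 6 tested GAL genes with either kind of values, 1 by unadjusted p; GAL3 had a difference of -0.05 and GAL2 of 0.17.

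Each of 586 genes whose early glucose mean differed from galactose by at least 2-fold was then assigned a fate by the later difference from the same galactose arrays. A difference was kept if it was still at least 2-fold in the same direction, partly kept between 0.5 and 1 log2 units, lost within 0.5, and reversed if it passed 0.5 in the other direction. Early and later differences share the galactose arrays, and the early arrays that chose the genes also enter the later minus early difference, so these counts are a description. In the limma test itself early glucose against galactose gave 1 higher gene (0.0192%), ENO1, and none lower (0%), with 491 by unadjusted p (9.43%); neighbour-corrected values gave 20 higher (0.384%) and 3 lower (0.0576%). Without 344 h there were 45 calls, without 385 h 17, and without 305, 316, 353, 507 or 526 h 0.

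With median-centred values, most early high values were back near galactose later, and most early low values were still low. Of 324 genes higher in early glucose (6.22% of those tested), 24 (7.41%) were kept, 65 (20.1%) partly kept, 195 (60.2%) lost and 40 (12.3%) reversed. Of 262 genes lower in early glucose (5.03%), 153 (58.4%) were kept, 63 (24%) partly kept, 44 (16.8%) lost and 2 (0.763%) reversed. Over all genes tested, 59.4% lay within 0.5 of galactose later, 3.34% were at least 2-fold higher and 8.37% at least 2-fold lower. The lost share of the high values is thus close to the share of all genes near galactose, and their reversed share lies under the 21.4% of all genes that were later at least 0.5 below galactose. Near the threshold, 161 members had an early difference between 1 and 1.1 log2 units, and 221 genes just outside had one between 0.9 and 1. Neighbour-corrected values put 313 genes past 2-fold. Of these, 193 were high early: 30 (15.5%) were kept, 48 (24.9%) partly kept, 77 (39.9%) lost and 38 (19.7%) reversed. The other 120 were low early: 52 (43.3%) were kept, 47 (39.2%) partly kept, 20 (16.7%) lost and 1 (0.833%) reversed. Lost high values and kept low values were thus not a majority there. Of the 198 genes chosen by both kinds of values 129 kept the same class, with 55 kept, 33 lost and 19 reversed by both. Over both directions the counts depended on single arrays: kept 177 became 329 without 305 h and 99 without 316 h, partly kept 128 became 258 without 305 h and 275 without 344 h, lost 239 became 952 without 344 h and 78 without 353 h, and reversed 42 became 228 without 344 h, 26 without 353 h and 25 without 305 h.

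**Figure D4:**
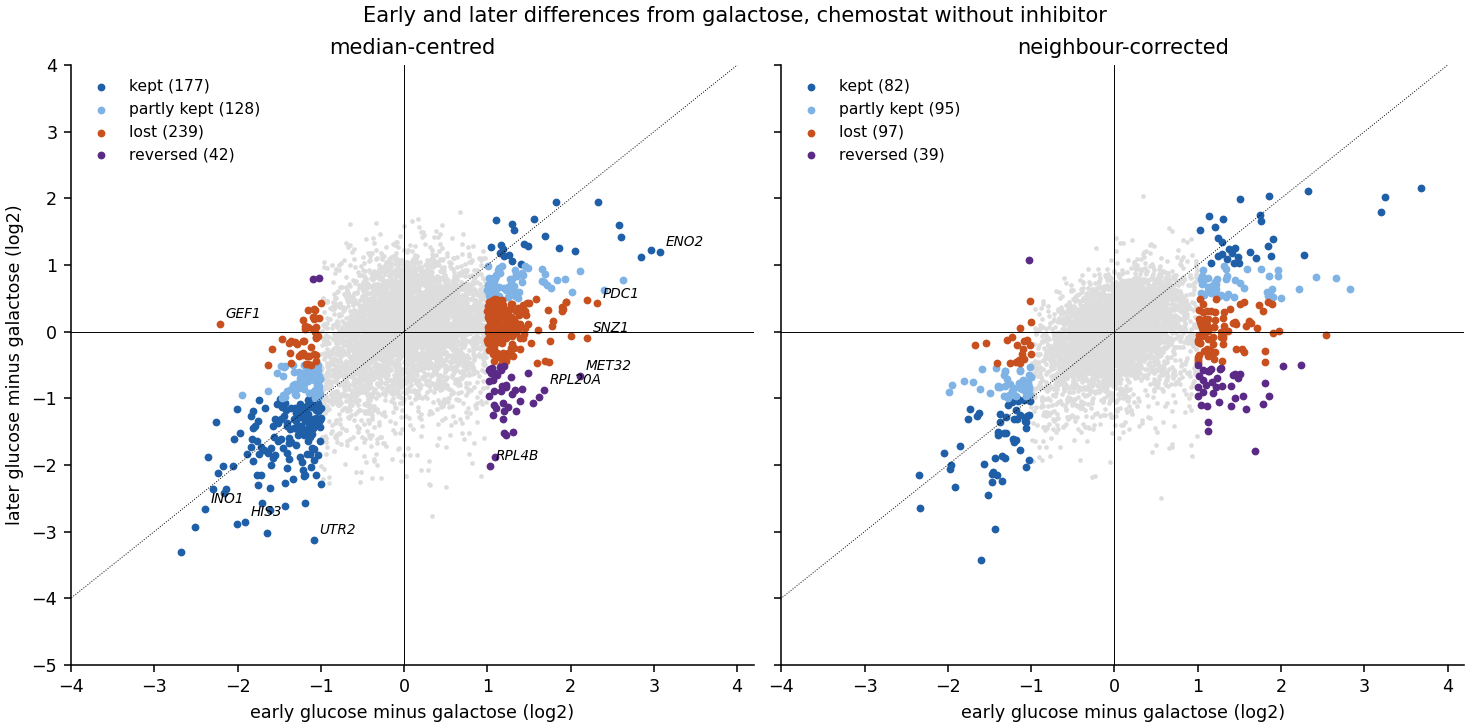
Early glucose minus galactose (x axis) and later glucose minus galactose (y axis) in log2 units, 1 point per gene, for median-centred (left) and neighbour-corrected values (right); colours give the fate of genes past 2-fold early, with counts, grey points are the other genes and the dotted line marks equal differences. On the left, high early values spread down to and below 0 on the y axis (195 lost, 40 reversed), whereas low early values stay low (153 of 262 kept).

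Glycolysis led the early high values that were kept. The 4 largest were ENO2, SVP26, ENO1 and GPM1. ENO2 (YHR174W), the glucose-induced enolase, was 3.07 above galactose early and 1.20 later; its later values of -2.90, -0.62, -1.31 and -1.0 include one, at 385 h, below the galactose values of -2.70 and -2.60. GPM1, the phosphoglycerate mutase, was 2.60 above galactose early and 1.42 later. Of 7 lower glycolysis genes with a high early value, 4 were kept, 1 partly kept and 2 lost. Of all 324 early high values 7.41% were kept, 20.1% partly kept and 60.2% lost. AHP1, a peroxiredoxin, and OYE3, an NADPH oxidoreductase, which were looked at after their values were seen, were the 2 genes called higher in later glucose than in galactose (0.0384%), at 1.95 each.

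Genes of fermentation were among the values that were partly kept or lost. PDC6 was 2.63 above galactose early and 0.78 later, VAS1, the valyl-tRNA synthetase, 2.40 and 0.62, and CDC19, the pyruvate kinase, 2.11 and 0.91. PDC1, FBA1 (the fructose bisphosphate aldolase), SNZ1 and TRP5 were the largest of those lost, at 2.31, 2.20, 2.20 and 2.00 early and 0.42, 0.48, -0.09 and -0.07 later. Proteasome genes gave 6 early high values, of which 5 were lost and 1 partly kept, and the general stress list 10, of which 5 were lost, 2 partly kept and 3 kept. The shares over all 324 early high values were 60.2% lost, 20.1% partly kept and 7.41% kept.

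Ribosomal protein genes made up 23 of the 42 reversed genes. Of their 31 early high values 23 were reversed, 8 lost and none kept. Of all 324 early high values 12.3% were reversed, 60.2% lost, 20.1% partly kept and 7.41% kept. Among all genes tested, 21.4% were later at least 0.5 below galactose. Of the 42 reversed genes 19 were also reversed with neighbour-corrected values, and quantile normalization gave 2 reversed genes in all. The reversed genes with the largest early difference were MET32, 2.11 above galactose early and -0.66 later, RPL20A, at 1.68 and -0.88, RPS18A, at 1.62 and -0.98, and GLY1, at 1.55 and -1.08. RPL20A had 0.41, 1.12, 0.79 and 0.83 on the later arrays, against 2.73 and 3.96 in early glucose and 1.45 and 1.88 in galactose. These are levels below the galactose start on all 4 later arrays. Of 14 early high values in the 5 amino acid lists, 6 were reversed, in ILV6, BAT1, ARO3, ARG1, HIS1 and LYS12. The other 8 comprise 4 that were lost, 2 of them aromatic, and 4 that were partly kept, 3 of them in lysine synthesis and 1 in the branched-chain list.

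Among early low values, INO1, the inositol phosphate synthase, had -0.33, -0.84, -1.56 and -0.95 on the later arrays and -0.12 and -1.19 in early glucose, against 1.00 and 2.48 in galactose. It differed from galactose by -2.39 early and -2.66 later, and each glucose value lay under both galactose values. YBR206W, YHR213W and YCL053C had the other largest early low values that were kept, at -2.67, -2.51 and -2.36 early and -3.31, -2.93 and -1.87 later. These are median-centred values. Kept low values numbered 153 of 262 there and 52 of 120 with neighbour-corrected values. The neighbour-corrected values of these single genes are not given here, and the part of row order in them was not tested beyond that correction. GAL3, the galactose sensor, differed from galactose by -1.29 early and -1.35 later. The 2 low values that reversed were YBR062C and YJR098C, and GEF1, a chloride channel gene, had the largest low value that was lost, -2.21 early and 0.12 later. In all, 71 genes (1.36%) were called lower and 2 higher in later glucose than in galactose, and 11 of the 71 were also called lower than in early glucose. Many of the 71 have closely numbered systematic names, such as YCL044C, YCL045C and YCL047C, or YHR120W, YHR121W, YHR122W and YHR123W. Neighbour-corrected values called 28 lower (0.538%) and 9 higher (0.173%). The 73 calls became 0 without 305 or 316 h, 19 without 478 h, 12 without 526 h and 155 without 507 h.

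Within the later glucose arrays, the steady-state samples at 507 and 526 h were set against those at 385 and 478 h. No gene passed with limma (0% in each direction), and 61 (1.17%) had an unadjusted p under 0.05. Neighbour-corrected values also gave none, and 204 (3.92%) by unadjusted p. The design has 2 arrays on each side. With only 507 and 526 h as later arrays 21 genes were called against early glucose, and with only 385 and 478 h 51.

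The same later minus early difference was then set against the other cultures in a fit over all 22 arrays and 4453 genes. In no3AT it was lower than in no3AT2 for 352 genes (7.9%) and higher for 21 (0.472%); neighbour-corrected values gave 360 (8.08%) and 47 (1.06%). Of the cytosolic ribosomal proteins, 81 of 120 tested were lower in no3AT (78 with neighbour-corrected values), with a median later minus early difference of -1.28 in no3AT and 0.86 in no3AT2. The arrays show the opposite course: no3AT2 had medians of 0.77, 0.81 and 0.56 later and -0.40 and 0.03 at 315 and 328 h. RPL4B differed by -4.37 log2 units in this comparison (adjusted p = 9.01e-05).

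Amino acid genes were among the genes that differed, with 20 of 43 lower in no3AT than in no3AT2. Outside transposon genes, SNZ1 had the largest negative difference of the genes named, -5.80, with later minus early differences of -2.29 in no3AT and 3.51 in no3AT2. Its early no3AT2 level rests on 1 array, -2.70 at 315 h, since it has no value at 328 h. GCN4 differed by -2.71, HIS1 by -2.86 and HIS5 by -2.85. LYS12, the homoisocitrate dehydrogenase, differed by -3.87, although its decrease within no3AT did not pass (adjusted p = 0.0513). HIS3 differed by -0.36 and did not pass (adjusted p = 0.833). The polyA RNA of no3AT2 and total RNA of no3AT cannot be told apart from a difference between the cultures, nor can the hours, since the early arrays of no3AT2 were taken at 315 and 328 h and its later ones at steady state.

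Against 3AT40mM, no gene passed in the limma fit (0% in each direction), while 383 (8.6%) had an unadjusted p under 0.05. Neighbour-corrected values also gave none, and 338 (7.59%) by unadjusted p. The median ribosomal protein difference later minus early was -1.28 in no3AT and -0.32 in 3AT40mM. The early pair of 3AT40mM did not share a level: its ribosomal protein median was 0.38 at 552 h and 1.57 at 574 h, and 0.89, 0.90, 0.64 and 0.19 at 592, 850, 878 and 937 h. Without 552 h no gene passed either.

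**Figure D5:**
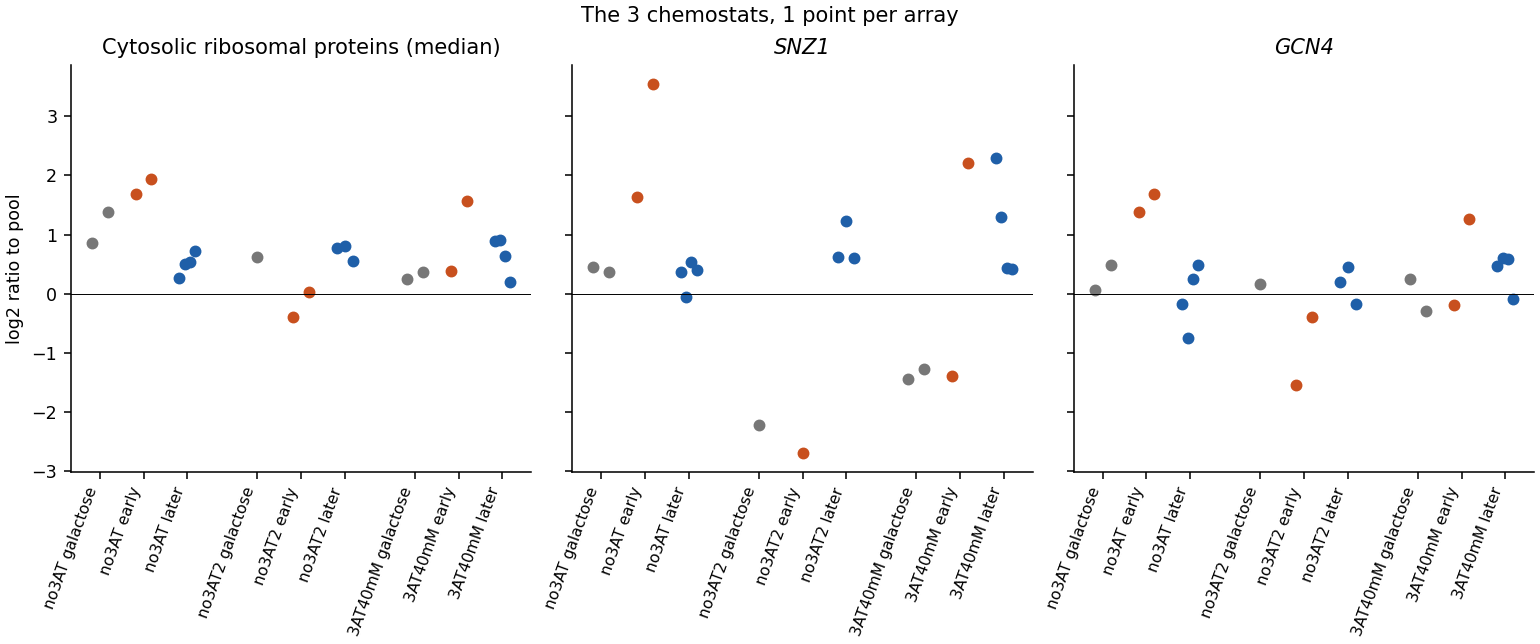
Log2 ratio to the pool (y axis) of the ribosomal protein median, SNZ1 and GCN4 on each array of no3AT, no3AT2 and 3AT40mM, in galactose (grey), early glucose (orange) and later glucose (blue), 1 point per array. In no3AT the later points lie below the early ones in all 3 panels, in no3AT2 they lie above, and in 3AT40mM the 2 early points are far apart. SNZ1 has only 1 early point in no3AT2.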

How the data were processed

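The deposited log ratios, taken as log2 of Cy5 culture RNA over a Cy3 pool, were used as the authors gave them. The extraction was with hot phenol, per the labels' protocols, and no source used here states the scanning or normalization. Intensities and depth are unknown, and the number of arrays limits the precision. Each array was centred on its median, and rows of a gene were averaged (6281 rows, 6242 genes; 5763 rows matched to RefSeq names of the R64 assembly). A gene needed both early, 1 or more galactose and 3 or more later values. limma 3.58.1 (R 4.3.3) fitted galactose, early and later means to 8 arrays, with Benjamini-Hochberg adjustment over all genes tested. The 22-array fit took genes with values on 80% of arrays. Named genes are the 12 largest called each way, 4 per fate class and direction, up to 4 per list and up to 4 each way between cultures, with the GAL, HIS and GCN4 genes always. The members and the 39 gene lists were chosen with earlier results of these data known; RPP1, an RNase P subunit caught by a name pattern, was removed from the ribosomal list after its value was seen. Alternatives changed scaling, row-order correction, filters, arrays and the early threshold. The procedure was tested on simulated data with known changes and noise drawn independently for each gene and array. The row-order pattern and the wider spread at 353 h were not simulated, so that test does not cover them.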

Additional observations from a re-analysis of the deposited data

Results flagged for a closer look

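Among the 4 later glucose arrays, 4 of 94 named genes and list medians had 1 array far from the other 3, where chance flags about 1 in 20 such groups. POL12 stood at 0.23 at 507 h, against -2.60 to -2.19 on the others, and EFB1 at 0.18 at 507 h, against -1.94 to -1.72. HIS6 was at -2.02 at 507 h, against -0.40 to -0.23. SAM2 was at -0.61 at 385 h, against 0.37 to 0.55.

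The later minus early difference was tested between no3AT and no3AT2, and 60 of the 71 named genes with a value passed. Over all 4453 genes tested, 352 (7.9%) were lower and 21 (0.472%) higher in no3AT. Many named genes were chosen by their change in no3AT, which is part of this difference, or by the difference itself. The count of 60 is therefore a description and no support. The largest higher values in no3AT were 2.50 for HXT16, 2.46 for YOR082C, 2.17 for ECM27 and 2.16 for THI11. The largest lower ones were -5.95 for YJR028W, -5.80 for SNZ1, -4.96 for YMR051C and -4.94 for YBL005W-A. The SNZ1 value rests on 1 early array of no3AT2. YJR028W, YMR051C and YBL005W-A are transposon (Ty) gene products in many near-identical copies, with differences of -1.50, -0.54 and -1.13 in no3AT and 4.45, 4.42 and 3.81 in no3AT2. Among the histidine genes and their activator, HIS1 was at -2.86, HIS5 at -2.85 and GCN4 at -2.71. RNA type and culture cannot be told apart in this comparison.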

How the results depend on the processing

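The 134 genes called between later and early glucose became 86 with values as deposited, 44 with quantile normalization, 21 with later glucose as 507 and 526 h only, 51 as 385 and 478 h only, 59 with the 6 glucose arrays only, 83 with 4 means and 363 with all 22 arrays, and stayed within 1.5 times under the other filters, weights and neighbour correction. Leaving out 1 array gave 4 to 866 (with neighbour-corrected values 6 without 353 h, 77 without 478 h, 84 without 385 h, 352 without 507 h and 384 without 344 h); called ribosomal protein genes ranged from 2 to 70, amino acid genes from 2 to 20 and glycolysis and fermentation genes from 0 to 11. The low ends come without 353 h. Of early differences, kept 177, partly kept 128, lost 239 and reversed 42 became 94 lost and 2 reversed with quantile normalization, 82 kept and 97 lost with neighbour correction, 108 kept, 61 partly kept and 156 reversed with early against 305 h and later against 316 h, and 431 lost and 65 reversed the other way round. Requiring 2-fold on both early arrays gave 111, 39, 47 and 12 in that order, and a 3-fold change 51, 14, 21 and 3. Without 1 array they ranged over 99 to 329, 98 to 275, 78 to 952 and 25 to 228. Against galactose, the 1 early call became 23 and the 73 later calls 37 with neighbour correction (0 to 45 and 0 to 155 without 1 array). Between no3AT and no3AT2, quantile normalization gave 194 calls in place of 373, and between no3AT and 3AT40mM 1 in place of 0.

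Of the named genes followed through these alternatives only GAL2, GAL3 and HIS6, none of them called, changed sign. Not every gene named above was followed in this way. RPL43B, which was not, went from 1.03 to -0.35 with neighbour-corrected values. GAL3 was at 0.030 as deposited, 0.20 with quantile normalization, 0.52 with 385 and 478 h only, 0.20 with array weights, 0.19 without 344 h and 0.42 without 507 h, with -0.32 without 385 h as its lowest value without 1 array. GAL2 was at -0.25 with 507 and 526 h only, -0.14 without 353 h and -0.003 without 385 h. Its highest value without 1 array was 0.48, without 344 h. HIS6 was at 0.22 with 385 and 478 h only, 0.20 with array weights, 0.08 without 353 h and 0.27 without 507 h. Its lowest value without 1 array was -0.40, without 344 h. Over all these alternatives GAL3 went down to -0.62, GAL2 up to 1.025 and HIS6 down to -0.53. The cause was not tested. No paired analysis was possible because the arrays of a culture are time points and the labels give groups no shared replicate numbers.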

Other observations

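The remaining gene lists gave 3 calls among them, all lower. Among all genes tested 2.42% were called lower, and 21% passed by unadjusted p in either direction. For amino acid permeases (14 tested), trehalose and glycogen (17), oxidant defence (29), sucrose and maltose (13), the TCA cycle (17), the respiratory chain with ATP synthase (32) and the peroxisome (25), limma called none between later and early glucose, and 3, 4, 7, 4, 1, 4 and 5 genes had an unadjusted p under 0.05. The same held for phospholipid synthesis (23), ergosterol synthesis (23), the phosphate (15), iron (14) and zinc (10) regulons, nitrogen catabolite repression (24), G2 and M genes (28) and the mating type a (6) and alpha (4) genes, with 2, 4, 1, 3, 3, 7, 5, 0 and 1 by unadjusted p. The calls, named after their values were seen, were YAT1, an acetyl-carnitine transferase, in the list of gluconeogenesis and C2 use, and POL12 and the cyclin gene PCL1 among G1 genes. POL12 passed with neighbour-corrected values as well, which also called TPS1, EPT1, ISU2, ZPS1, GLN1 and PIR1, each in a different list.

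Median differences of these lists ran from -0.29 for the TCA cycle and -0.22 for ergosterol synthesis to 0.28 for nitrogen catabolite repression, 0.29 for G1 genes and 0.65 for the 4 alpha genes, against -0.04 over all genes tested.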
